A study of Homo sapiens with 24 samples.

Results

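The genes described here are 32 target genes of the transcription factor p53, found by gene symbol among the 23595 genes of the deposited tables. All 32 symbols were present. They fall into 5 roles: control of p53 itself, cell cycle and growth arrest, DNA repair and nucleotide supply, cell death, and metabolism with organelles and secreted signals. They were followed in 24 libraries of polyadenylated RNA from the human acute myeloid leukaemia cell lines U937 and IMS-M2. Each line was cultured without (-FA) or with (+FA) folic acid, a vitamin needed for nucleotide synthesis and methylation, and received OTX or the solvent DMSO. This gives 8 groups of 3 libraries, which are U937 -FA OTX, U937 -FA DMSO, U937 +FA OTX, U937 +FA DMSO, IMS-M2 -FA OTX, IMS-M2 -FA DMSO, IMS-M2 +FA OTX and IMS-M2 +FA DMSO. From what is known of the study, OTX stands for birabresib, which keeps BET bromodomain proteins off the acetylated chromatin where they help to start transcription. The labels give only the abbreviation and state no dose, duration or separate culture for a library, so p-values measure only the spread between these samples, which may be technical. U937, a line with monocytic features, is widely described as lacking functional p53, and a comparison of the lines is a comparison of 1 line with 1 line.

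p53 binds a repeated DNA motif and raises transcription of its targets after DNA damage, nucleotide shortage and other stress. The targets stop the cell cycle, repair DNA, start cell death or adjust metabolism, and MDM2, itself a target, marks p53 for degradation. Many targets also have other activators, so their RNA can change in cells without working p53. These sentences are background and not results of these data.

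Levels are given in FPKM, a count of sequenced fragments scaled to transcript length and to library size, so each one is relative to the other RNA of its library. In bulk RNA, fewer cells of a type and less RNA per cell cannot be told apart. The values summed to between 522659 and 644841 per library, 10418 to 10894 genes reached 1 FPKM, and the read depth is unknown. Within groups the Pearson correlation between libraries, across genes that are not independent replicates, was 0.975 to 0.994, and the lowest value was in U937 -FA DMSO. Of 14 haematopoietic markers, 9 to 12 averaged at least 1 FPKM in a group. CD34 and KIT were near 0 in U937, the granule gene ELANE was near 0 in IMS-M2, and CD14 was near 0 in both. The summed level of this list was lower under OTX in every table, for example 1912 to 2202 FPKM in U937 -FA OTX against 2787 to 3042 FPKM in U937 -FA DMSO, and 306.7 to 322 FPKM in IMS-M2 -FA OTX against 381 to 401 FPKM in IMS-M2 -FA DMSO. The U937 sum was carried by ELANE, with 556 to 1378 FPKM over the U937 libraries, and the lysozyme gene LYZ, with 225 to 1759 FPKM. Gene by gene, 3 markers rose and 5 fell of 11 tested in U937 -FA (median log2 -0.03), 4 rose and 5 fell in U937 +FA (-0.10), and of 12 tested 1 rose and 10 fell in IMS-M2 -FA (-0.60) and 2 rose and 9 fell in IMS-M2 +FA (-1.26). Of 14 non-haematopoietic markers, ACTA2 alone reached 1 FPKM in U937, and ACTA2 and PDGFRB did in IMS-M2. Their summed level was 5.71 to 6.85 FPKM in U937 -FA OTX against 3.91 to 5.45 FPKM in U937 -FA DMSO, 7.77 to 10.6 FPKM in U937 +FA OTX against 2.61 to 3.67 FPKM in U937 +FA DMSO, 16.8 to 19.5 FPKM in IMS-M2 -FA OTX against 20.5 to 23.3 FPKM in IMS-M2 -FA DMSO, and 25.8 to 31.9 FPKM in IMS-M2 +FA OTX against 34.8 to 54.7 FPKM in IMS-M2 +FA DMSO. The part of these marker shifts in the results was not tested. OTX changed both of its usual readouts in every table, by limma on log2(FPKM + 1) with Benjamini-Hochberg adjustment. HEXIM1, which holds transcription elongation back, rose by 2.02, 1.24, 2.03 and 2.31 on the log2 scale in U937 -FA, U937 +FA, IMS-M2 -FA and IMS-M2 +FA, and MYC, a driver of growth, changed by -3.08, -2.98, -0.62 and -0.47.

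The promoters of 7 genes are shown because they hold the p53 half-site, the decamer that p53 binds in pairs. RefSeq sequences of the GRCh38.p14 assembly, from 250 bases before to 50 bases after a start site, gave 36 promoters for 24 of the 32 genes. A half-site was found in 7 of the 36 promoters (19.4%) and in 6.63% of 35116 promoters in all. A pair of half-sites at most 13 bases apart was found in 1 of the 36, that of DDB2, and in 0.0285% of all promoters. Each line gives a stretch around the match, 5′ to 3′ on the strand of the gene, with the matched bases in capitals.
PLK2 (chr5:58460199-58460228, minus strand): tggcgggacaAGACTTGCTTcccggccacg
SESN1 (chr6:109009018-109009047, minus strand): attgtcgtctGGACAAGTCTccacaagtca
FAS (chr10:88991299-88991328, plus strand): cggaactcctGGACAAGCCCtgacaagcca
DDB2 (chr11:47214975-47215003, plus strand, a pair): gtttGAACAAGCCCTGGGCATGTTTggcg
RPS27L (chr15:63157517-63157546, minus strand): ggcctagagcAGACAAGCCCgccccgccgc
AEN (chr15:88621296-88621325, plus strand): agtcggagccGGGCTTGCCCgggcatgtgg
FDXR (chr17:74872986-74873015, minus strand): gggcaggagcGGGCTTGCCCtgcggagcag
The half-site and the pair were searched by name on both strands. The E-box CACGTG, a motif of MYC and related factors, was in 3 of the 36 promoters (8.33%) against 7.26% of all, and the GC box GGGCGG was in 31 (86.1%) against 45% of all. A match describes the letters of these windows and is not a measured binding site.

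Under OTX, p53 targets moved in both directions in all 4 tables. BTG1 and BTG2, which restrain growth, rose in each table, and AEN, a nuclease of cell death, fell in each. A gene entered a test where at least 1 group of its line averaged 1 FPKM, which 24 of the 32 genes did in U937 and 31 in IMS-M2. SPATA18, which acts in mitochondrial quality control, did not exceed 0.00802 FPKM in any library. PLK2, EDA2R, PHLDA3, TP53INP1, GDF15, TP53I3 and CMBL lay below the filter in U937 only. ZMAT3 passed it in U937 only through its OTX groups, so its rise there follows in part from the filter. A gene was called at an adjusted p below 0.05 over all genes tested. In U937 -FA, 11 of 24 p53 targets rose and 6 fell, where 28.0% of all genes rose and 31.7% fell, or 59.8% together. In U937 +FA, 11 rose and 4 fell, against 29.1% and 27.0% of all genes, or 56.1% together. In IMS-M2 -FA, 13 of 31 rose and 9 fell, against 27.5% and 30.0%, or 57.5% together. In IMS-M2 +FA, 15 rose and 8 fell, against 29.8% and 33.4%, or 63.2% together. Without ZMAT3, 10 of 23 rose in U937 -FA and 10 of 23 in U937 +FA. The median log2 change of the tested targets was 0.17 in U937 -FA, 0.16 in U937 +FA, 0.20 in IMS-M2 -FA and 0.21 in IMS-M2 +FA, where the medians of all genes were -0.02, 0.02, -0.01 and -0.03. Of the 24 genes tested in both lines, PPM1D, BTG1, BTG2, PLK3, XPC and RRM2B rose in all 4 contrasts, and AEN and DRAM1 fell in all 4. Of 10220 genes tested in both lines, 11.4% rose in all 4 and 11.8% fell in all 4.

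**Figure D1:**
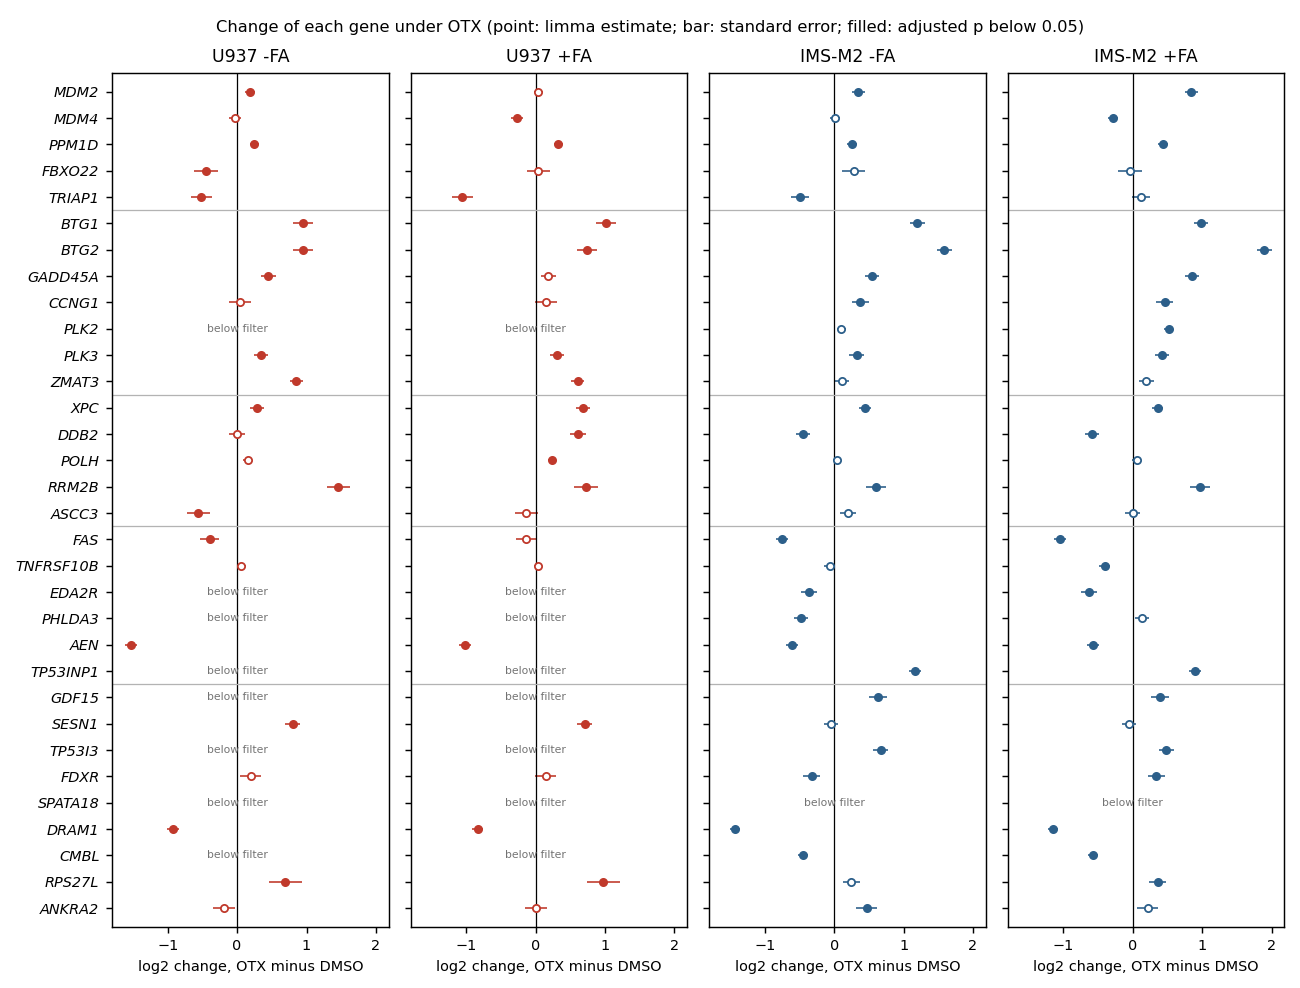
The log2 change of each gene under OTX, OTX minus DMSO, with 1 panel per line and folic acid condition. Points are limma estimates on log2(FPKM + 1), bars are standard errors, filled points passed at an adjusted p below 0.05, and grey lines separate the 5 roles. BTG1 and BTG2 stand right of 0 in all 4 panels, and AEN and DRAM1 stand left of 0 in all 4.

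Among the genes that control p53, the negative regulator MDM2 rose in IMS-M2 in both conditions, the p53 phosphatase PPM1D rose in every table, and MDM4 fell with folic acid in both lines. MDM2 (hg19 chr12:69201970-69239320), the ubiquitin ligase of p53, had 29.7, 34.2 and 28.2 FPKM under OTX, against 22.6, 25.5 and 23.6 FPKM in DMSO without folic acid, and 40.6, 48.0 and 38.8 FPKM under OTX, against 23.2, 23.2 and 22.9 FPKM in DMSO with it in IMS-M2. In U937 it had 5.83, 6.36 and 6.67 FPKM under OTX, against 5.52, 5.41 and 5.30 FPKM in DMSO without folic acid, and 5.61, 6.13 and 6.25 FPKM under OTX, against 5.54, 6.09 and 5.79 FPKM in DMSO with it. The OTX libraries lay above all DMSO libraries in IMS-M2 and in U937 -FA, and the groups overlapped in U937 +FA. The log2 change was 0.35 ± 0.093, adjusted p = 0.00669 in IMS-M2 -FA and 0.84 ± 0.093, adjusted p = 6.41e-06 in IMS-M2 +FA (± SE, limma, n = 3 per group). In U937 it was 0.18 ± 0.069, adjusted p = 0.0382 without folic acid and 0.04 ± 0.069, adjusted p = 0.646 with it.

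MDM4 (chr1:204485506-204527248), the MDM2 relative that masks the activating domain of p53, had 3.70, 3.97 and 4.29 FPKM under OTX, against 4.53, 3.92 and 3.78 FPKM in DMSO without folic acid, and 3.21, 4.05 and 3.68 FPKM under OTX, against 4.53, 4.64 and 4.62 FPKM in DMSO with it in U937. In IMS-M2 it had 4.56, 3.99 and 3.89 FPKM under OTX, against 4.37, 4.03 and 3.88 FPKM in DMSO without folic acid, and 4.04, 3.57 and 3.60 FPKM under OTX, against 4.86, 4.62 and 4.77 FPKM in DMSO with it. With folic acid every OTX library lay below every DMSO library in both lines, and without it the groups overlapped. The log2 changes with folic acid were -0.27 ± 0.086, adjusted p = 0.0184 in U937 and -0.28 ± 0.075, adjusted p = 0.00541 in IMS-M2, and those without it were -0.02 ± 0.086 and 0.02 ± 0.075. The change without folic acid minus that with it did not pass by limma in either line. This difference was 0.25 ± 0.12, adjusted p = 0.173, in U937 and 0.30 ± 0.11, adjusted p = 0.092, in IMS-M2. PPM1D (chr17:58677543-58743640), the phosphatase that switches p53 off, had 4.78, 5.12 and 4.93 FPKM under OTX, against 3.96, 4.07 and 3.99 FPKM in DMSO without folic acid, and 5.33, 5.24 and 4.99 FPKM under OTX, against 4.01, 4.18 and 3.65 FPKM in DMSO with it in U937. In IMS-M2 it had 9.77, 10.3 and 9.21 FPKM under OTX, against 7.71, 8.41 and 7.85 FPKM in DMSO without folic acid, and 10.6, 11.2 and 10.5 FPKM under OTX, against 7.10, 8.12 and 7.82 FPKM in DMSO with it. No OTX library reached down to a DMSO library in any table. The rises were small, at 0.25 ± 0.064, 0.32 ± 0.064, 0.26 ± 0.071 and 0.44 ± 0.071 on the log2 scale in U937 -FA, U937 +FA, IMS-M2 -FA and IMS-M2 +FA, with adjusted p of at most 0.00788 by limma.

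TRIAP1, a small protein that restrains apoptosis, fell in U937 -FA (-0.52), U937 +FA (-1.06) and IMS-M2 -FA (-0.49) and had a log2 change of 0.12 ± 0.13, adjusted p = 0.431, in IMS-M2 +FA. It averaged 15.3 ± 2.54 FPKM in U937 +FA OTX and 32.6 ± 1.76 FPKM in U937 +FA DMSO (SD, n = 3 each). FBXO22, a ubiquitin ligase subunit that acts on p53 complexes, fell in U937 -FA (-0.45 ± 0.17, adjusted p = 0.0387 by limma) and had 0.04 ± 0.17, 0.28 ± 0.17 and -0.04 ± 0.17 in U937 +FA, IMS-M2 -FA and IMS-M2 +FA. It shares its locus in the tables with the antisense gene FBXO22-AS1, and whether the counting used strand is not given in the sources used here. Some of these calls were lost when single libraries or settings were changed. The MDM2 call in U937 -FA was lost without DMSO column 0, 1 or 2, without OTX column 1 or 2, with no filter, with a filter at 5 FPKM and with the 6 libraries of the table alone (adjusted p 0.0199 to 0.138 over the alternatives). That of FBXO22 was lost without DMSO column 0 or 2, without OTX column 0, 1 or 2, and with no filter (0.0107 to 0.137). That of MDM4 was lost in U937 +FA without DMSO replicate 2 or OTX replicate 1 (0.0102 to 0.0729), and in IMS-M2 +FA with quantile normalization (0.00332 to 0.113), where the log2 change was -0.15.

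Among the growth arrest genes, BTG1, BTG2 and PLK3 rose in each table, and none passed as lower. Without ZMAT3, whose rise in U937 follows in part from the filter, 4 of 5 tested rose in U937 -FA, 3 of 5 in U937 +FA, 5 of 6 in IMS-M2 -FA and 6 of 6 in IMS-M2 +FA, where 28.0%, 29.1%, 27.5% and 29.8% of all genes rose. BTG2 (chr1:203274663-203278729), an antiproliferative co-regulator of messenger RNA decay, had 39.0, 35.3 and 40.1 FPKM under OTX, against 12.9, 11.7 and 11.5 FPKM in DMSO without folic acid, and 22.3, 21.7 and 21.3 FPKM under OTX, against 6.47, 4.60 and 4.49 FPKM in DMSO with it in IMS-M2. In U937 it had 5.74, 6.45 and 5.57 FPKM under OTX, against 2.77, 3.05 and 2.01 FPKM in DMSO without folic acid, and 4.76, 3.58 and 3.95 FPKM under OTX, against 1.50, 2.37 and 2.35 FPKM in DMSO with it. The groups were apart in all 4 tables, and the IMS-M2 libraries without folic acid were higher than those with it in both treatments. The log2 changes were 0.95 ± 0.14, adjusted p = 0.000156, in U937 -FA, 0.74 ± 0.14, adjusted p = 0.00101, in U937 +FA, 1.59 ± 0.11, adjusted p = 8.87e-08, in IMS-M2 -FA, and 1.90 ± 0.11, adjusted p = 1.41e-08, in IMS-M2 +FA (± SE, limma).

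BTG1 (chr12:92378751-92539673), its relative, had 26.0, 36.3 and 32.6 FPKM under OTX, against 16.0, 13.8 and 17.7 FPKM in DMSO without folic acid, and 23.6, 25.5 and 30.0 FPKM under OTX, against 14.4, 12.4 and 10.8 FPKM in DMSO with it in U937. The IMS-M2 libraries held 11.8, 13.5 and 12.1 FPKM under OTX, against 4.75, 4.99 and 4.82 FPKM in DMSO without folic acid, and 10.4, 12.9 and 10.8 FPKM under OTX, against 4.41, 6.03 and 5.42 FPKM in DMSO with it. OTX libraries lay above DMSO libraries in every table, and the 4 log2 changes were close, at 0.95 ± 0.14, 1.02 ± 0.14, 1.20 ± 0.10 and 0.98 ± 0.10 in U937 -FA, U937 +FA, IMS-M2 -FA and IMS-M2 +FA, with adjusted p of at most 0.000171. BTG1 shares its locus in the tables with LOC256021. PLK3 (chr1:45266035-45272957), a polo-like kinase of the stress response, had 6.79, 6.62 and 5.81 FPKM under OTX, against 4.90, 5.40 and 4.20 FPKM in DMSO without folic acid, and 5.73, 4.51 and 5.54 FPKM under OTX, against 4.19, 3.69 and 4.30 FPKM in DMSO with it in U937. Its IMS-M2 values were 8.77, 7.40 and 8.87 FPKM under OTX, against 7.51, 5.95 and 5.97 FPKM in DMSO without folic acid, and 8.83, 7.79 and 8.88 FPKM under OTX, against 6.67, 5.35 and 6.29 FPKM in DMSO with it. The rises were modest, and in IMS-M2 -FA the lowest OTX library lay just below the highest DMSO library. The log2 changes were 0.35 ± 0.10, adjusted p = 0.0129, in U937 -FA, 0.30 ± 0.10, adjusted p = 0.0264, in U937 +FA, 0.32 ± 0.11, adjusted p = 0.0184, in IMS-M2 -FA, and 0.42 ± 0.11, adjusted p = 0.00369, in IMS-M2 +FA. PLK3 shares its locus with TCTEX1D4. Its call was lost in U937 +FA without DMSO replicate 2, OTX replicate 1 or OTX replicate 3 (0.0108 to 0.0993 over the alternatives) and in IMS-M2 -FA without DMSO replicate 2 or 3 or OTX replicate 1 or 3 (0.00447 to 0.073).

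**Figure D2:**
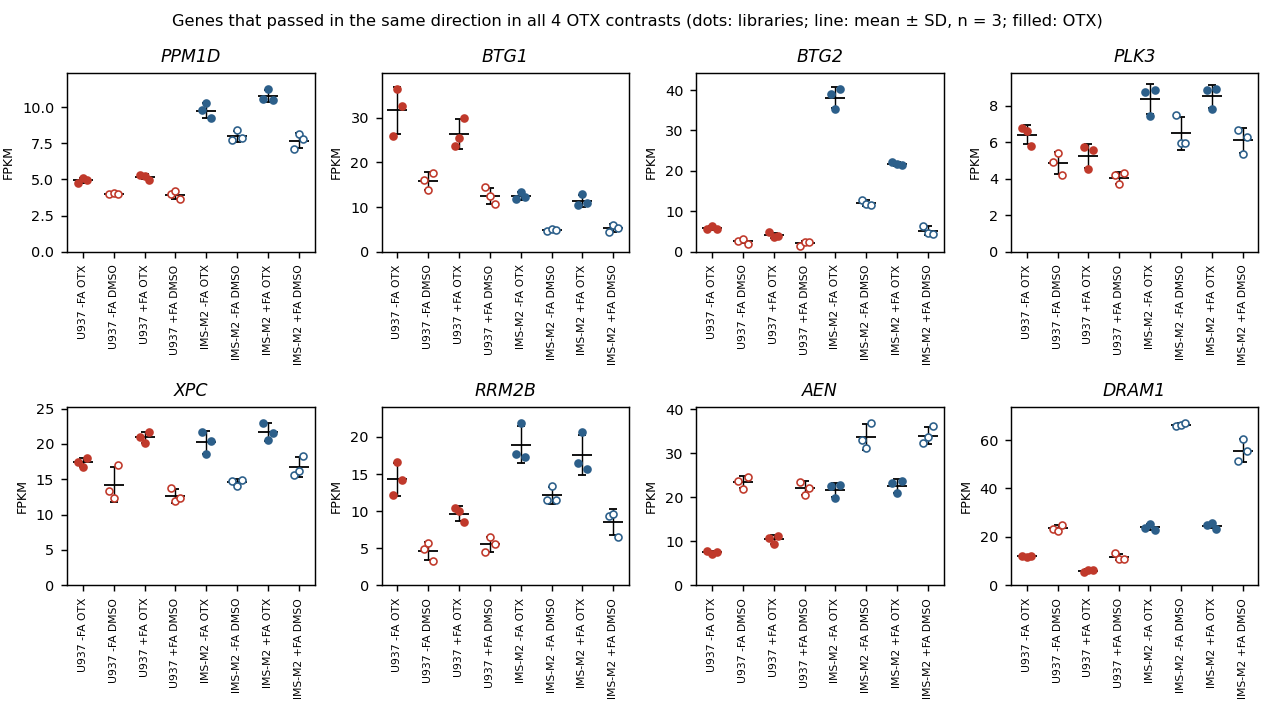
FPKM of the 8 genes that passed in 1 direction in all 4 OTX contrasts, by group. Dots are libraries, filled under OTX and open in DMSO, and lines are means ± SD (n = 3). In each panel the OTX group stands left of its DMSO group, with the higher mean for the first 6 genes and the lower mean for AEN and DRAM1.

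The other growth arrest genes rose in some tables. GADD45A, which links DNA damage to arrest, rose in U937 -FA (0.45 ± 0.11), IMS-M2 -FA (0.54 ± 0.10) and IMS-M2 +FA (0.86 ± 0.10), and its log2 change in U937 +FA was 0.18 ± 0.11, adjusted p = 0.158. CCNG1, cyclin G1, was among the most abundant targets and rose in IMS-M2, where it averaged 134 ± 10.5 FPKM under OTX and 103 ± 3.41 FPKM in DMSO without folic acid and 131 ± 14.6 FPKM under OTX and 95.6 ± 17.3 FPKM in DMSO with it (SD, n = 3 each). Its log2 changes in U937 were 0.04 ± 0.16, adjusted p = 0.856, and 0.14 ± 0.16, adjusted p = 0.458, without and with folic acid. Its call in IMS-M2 -FA was lost without DMSO replicate 1 or 2 or OTX replicate 2 (0.00179 to 0.0779). ZMAT3, an RNA-binding zinc finger protein, had 1.57, 2.23 and 1.94 FPKM under OTX, against 0.539, 0.577 and 0.697 FPKM in DMSO without folic acid, and 1.19, 1.20 and 1.59 FPKM under OTX, against 0.544, 0.558 and 0.477 FPKM in DMSO with it in U937. Only its OTX groups passed the filter in U937, so its rise there follows in part from the filter. All 6 U937 OTX libraries lay above all 6 DMSO libraries, and the log2 changes were 0.86 ± 0.098, adjusted p = 2.06e-05, and 0.60 ± 0.098, adjusted p = 0.000293. In IMS-M2, where its level was higher, they were 0.11 ± 0.11, adjusted p = 0.422, and 0.19 ± 0.11, adjusted p = 0.143.

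The DNA repair genes XPC and RRM2B rose in every table, and DDB2 rose in U937 +FA and fell in both IMS-M2 conditions. Besides DDB2, the OTX change differed between the lines for RRM2B and ASCC3 without folic acid and for XPC and POLH with it. XPC (chr3:14186647-14220172), which recognises damage in nucleotide excision repair, had 17.4, 16.8 and 18.1 FPKM under OTX, against 13.4, 12.3 and 17.0 FPKM in DMSO without folic acid, and 21.0, 20.1 and 21.6 FPKM under OTX, against 13.8, 11.9 and 12.3 FPKM in DMSO with it in U937. The IMS-M2 libraries held 21.7, 18.5 and 20.5 FPKM under OTX, against 14.8, 14 and 14.9 FPKM in DMSO without folic acid, and 23.0, 20.5 and 21.5 FPKM under OTX, against 15.7, 16.1 and 18.3 FPKM in DMSO with it. The groups were apart except in U937 -FA, where 1 DMSO library fell among the OTX libraries. The log2 changes were 0.28 ± 0.10, adjusted p = 0.0351, in U937 -FA, 0.68 ± 0.10, adjusted p = 0.000195, in U937 +FA, 0.44 ± 0.082, adjusted p = 0.000511, in IMS-M2 -FA, and 0.36 ± 0.082, adjusted p = 0.00208, in IMS-M2 +FA. The call in U937 -FA was lost without DMSO column 0 or 1, without OTX column 0, 1 or 2, and with the 6 libraries of the table alone (0.00129 to 0.136).

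RRM2B, the ribonucleotide reductase subunit that supplies nucleotides for repair, had 12.2, 16.6 and 14.1 FPKM under OTX, against 4.83, 5.71 and 3.32 FPKM in DMSO without folic acid, and 10.5, 10.1 and 8.48 FPKM under OTX, against 4.50, 6.49 and 5.50 FPKM in DMSO with it in U937. Its IMS-M2 values were 17.7, 21.9 and 17.3 FPKM under OTX, against 11.5, 13.4 and 11.5 FPKM in DMSO without folic acid, and 16.4, 20.7 and 15.6 FPKM under OTX, against 9.38, 9.60 and 6.54 FPKM in DMSO with it. Every OTX library lay above every DMSO library of its table. On the log2 scale RRM2B changed by 1.46 ± 0.17, adjusted p = 2.26e-05, in U937 -FA, 0.72 ± 0.17, adjusted p = 0.00345, in U937 +FA, 0.60 ± 0.14, adjusted p = 0.0032, in IMS-M2 -FA, and 0.97 ± 0.14, adjusted p = 7.63e-05, in IMS-M2 +FA.

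DDB2 (chr11:47236492-47260769), the damage sensor whose promoter holds the pair of half-sites shown above, had 17.4, 14.6 and 15.5 FPKM under OTX, against 16.0, 14.4 and 17.2 FPKM in DMSO without folic acid, and 27.8, 24.5 and 26.5 FPKM under OTX, against 19.3, 14 and 17.3 FPKM in DMSO with it in U937. The IMS-M2 libraries held 26.2, 23.5 and 27.0 FPKM under OTX, against 38.4, 30.6 and 37.6 FPKM in DMSO without folic acid, and 28.6, 24.7 and 29.0 FPKM under OTX, against 39.1, 41.3 and 44.6 FPKM in DMSO with it. OTX libraries lay above DMSO libraries in U937 +FA, below them in both IMS-M2 conditions, and overlapped with them in U937 -FA. OTX minus DMSO was 0.00 ± 0.11, adjusted p = 0.994, in U937 -FA, 0.62 ± 0.11, adjusted p = 0.000768, in U937 +FA, -0.45 ± 0.10, adjusted p = 0.00198, in IMS-M2 -FA, and -0.59 ± 0.10, adjusted p = 0.000264, in IMS-M2 +FA. POLH, a polymerase that copies past lesions, rose in U937 +FA (0.23 ± 0.061, adjusted p = 0.00666), had 0.15 ± 0.061, adjusted p = 0.0502, in U937 -FA, and had 0.04 ± 0.060 and 0.06 ± 0.060 in IMS-M2 -FA and +FA. It shares its locus with GTPBP2. ASCC3, a helicase of alkylation repair, fell in U937 -FA (-0.56 ± 0.16, adjusted p = 0.0109) and had -0.13 ± 0.16, 0.20 ± 0.11 and 0.00 ± 0.11 in U937 +FA, IMS-M2 -FA and IMS-M2 +FA.

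Among cell death genes, AEN fell in every table and TP53INP1 rose in IMS-M2. Of 3 tested in U937, 2 fell without folic acid and 1 with it, and of 6 in IMS-M2, 4 fell and 1 rose in each condition. Of all genes, 31.7% fell in U937 -FA, 27.0% in U937 +FA, 30.0% in IMS-M2 -FA and 33.4% in IMS-M2 +FA, so the single fall in U937 +FA is near the share of all genes. AEN (chr15:89164526-89175512), an apoptosis nuclease, had 7.89, 6.99 and 7.47 FPKM under OTX, against 23.8, 21.9 and 24.7 FPKM in DMSO without folic acid, and 10.7, 9.35 and 11.2 FPKM under OTX, against 23.6, 20.5 and 22.0 FPKM in DMSO with it in U937. Its IMS-M2 values were 22.5, 19.9 and 22.8 FPKM under OTX, against 33.2, 31.2 and 36.9 FPKM in DMSO without folic acid, and 23.2, 20.9 and 23.8 FPKM under OTX, against 32.3, 33.8 and 36.1 FPKM in DMSO with it. The OTX libraries lay below the DMSO libraries in every table, and the U937 OTX libraries were the lowest of all. OTX minus DMSO was -1.53 ± 0.086, adjusted p = 1.2e-07, in U937 -FA, -1.01 ± 0.086, adjusted p = 2.51e-06, in U937 +FA, -0.61 ± 0.087, adjusted p = 6.58e-05, in IMS-M2 -FA, and -0.57 ± 0.087, adjusted p = 0.000102, in IMS-M2 +FA.

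FAS, a death receptor, averaged 2.14 ± 0.141 FPKM under OTX and 4.30 ± 0.292 FPKM in DMSO in IMS-M2 -FA, and 2.57 ± 0.318 FPKM under OTX and 6.37 ± 0.475 FPKM in DMSO in IMS-M2 +FA (SD, n = 3 each). The falls were -0.75 ± 0.085, adjusted p = 8.91e-06, without and -1.05 ± 0.085, adjusted p = 3.77e-07, with folic acid on the log2 scale. In U937 it fell without folic acid (-0.40 ± 0.14, adjusted p = 0.0305) and had -0.14 ± 0.14, adjusted p = 0.424, with it. The U937 -FA call was lost without DMSO column 0 or 2, without OTX column 0 or 2, and with no filter (0.014 to 0.113). FAS shares its locus in the tables with ACTA2 and FAS-AS1, and ACTA2 had log2 changes of 0.35, 1.35, -0.19 and -0.44 in U937 -FA, U937 +FA, IMS-M2 -FA and IMS-M2 +FA. The part of the shared locus in the FAS values was not tested. TNFRSF10B, the TRAIL receptor, which shares its locus with LOC286059 and RHOBTB2, fell in IMS-M2 +FA (-0.41 ± 0.083, adjusted p = 0.000979) and had changes of 0.06 ± 0.063, 0.03 ± 0.063 and -0.07 ± 0.083 in U937 -FA, U937 +FA and IMS-M2 -FA. EDA2R, the ectodysplasin A2 receptor, fell in IMS-M2 without (-0.37 ± 0.11, adjusted p = 0.0138) and with folic acid (-0.63 ± 0.11, adjusted p = 0.000355). It was listed at 0 in 11 of the 12 U937 libraries.

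TP53INP1, a stress protein that aids p53-dependent death, was the cell death gene that rose. It had 4.21, 4.11 and 3.87 FPKM under OTX, against 1.31, 1.11 and 1.38 FPKM in DMSO without folic acid, and 3.02, 3.36 and 2.97 FPKM under OTX, against 1.12, 1.50 and 1.06 FPKM in DMSO with it in IMS-M2. In U937 it had 0.287, 0.305 and 0.365 FPKM under OTX, against 0.0334, 0.0141 and 0.0149 FPKM in DMSO without folic acid, and 0.186, 0.109 and 0.306 FPKM under OTX, against 0.0249, 0.0587 and 0.0140 FPKM in DMSO with it. OTX libraries lay above DMSO libraries in all 4 tables, although the highest U937 library held 0.365 FPKM and U937 was not tested. The log2 changes in IMS-M2 were 1.16 ± 0.087, adjusted p = 2.16e-07, without folic acid and 0.89 ± 0.087, adjusted p = 2.04e-06, with it. PHLDA3 (chr1:201434606-201438299), an inhibitor of AKT, had 16.6, 15.1 and 18.2 FPKM under OTX, against 26.8, 23.0 and 20.9 FPKM in DMSO without folic acid, and 25.5, 22.9 and 23.5 FPKM under OTX, against 23.9, 20.1 and 21.1 FPKM in DMSO with it in IMS-M2. It fell without folic acid (-0.48 ± 0.10, adjusted p = 0.00152), where the groups were apart, and had 0.14 ± 0.10, adjusted p = 0.258, with folic acid, where they overlapped.

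Among the genes of metabolism, organelles and secreted signals, DRAM1 fell in every table, SESN1 rose in U937, and TP53I3 rose in IMS-M2. DRAM1 (chr12:102271104-102317401), a lysosomal protein of autophagy, had 12, 11.7 and 12.2 FPKM under OTX, against 23.1, 22.5 and 25.0 FPKM in DMSO without folic acid, and 5.58, 6.34 and 6.30 FPKM under OTX, against 13.1, 10.9 and 10.9 FPKM in DMSO with it in U937. In IMS-M2 it had 23.7, 25.4 and 22.9 FPKM under OTX, against 65.7, 66.2 and 67.1 FPKM in DMSO without folic acid, and 24.7, 25.5 and 23.4 FPKM under OTX, against 51.1, 60.5 and 55.4 FPKM in DMSO with it. The groups were apart in every table, with the highest levels in IMS-M2 DMSO libraries. On the log2 scale DRAM1 changed by -0.92 ± 0.083, adjusted p = 3.58e-06, in U937 -FA, -0.84 ± 0.083, adjusted p = 8.3e-06, in U937 +FA, -1.43 ± 0.076, adjusted p = 9.03e-09, in IMS-M2 -FA, and -1.15 ± 0.076, adjusted p = 5.71e-08, in IMS-M2 +FA.

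SESN1 (chr6:109307639-109415708), a sestrin that restrains mTORC1, had 6.52, 7.74 and 7.54 FPKM under OTX, against 4.31, 3.20 and 3.74 FPKM in DMSO without folic acid, and 7.15, 7.91 and 8.04 FPKM under OTX, against 5.04, 3.91 and 4.13 FPKM in DMSO with it in U937. The IMS-M2 libraries held 26.7, 27.3 and 28.4 FPKM under OTX, against 27.5, 27.9 and 29.5 FPKM in DMSO without folic acid, and 31.5, 35.8 and 30.4 FPKM under OTX, against 28.3, 38.7 and 35.4 FPKM in DMSO with it. U937 OTX libraries lay above U937 DMSO libraries in both conditions, and the IMS-M2 groups overlapped. OTX minus DMSO was 0.80 ± 0.11, adjusted p = 6.58e-05, in U937 -FA, 0.70 ± 0.11, adjusted p = 0.000192, in U937 +FA, -0.04 ± 0.10, adjusted p = 0.748, in IMS-M2 -FA, and -0.06 ± 0.10, adjusted p = 0.641, in IMS-M2 +FA. TP53I3 (chr2:24300302-24308085), a quinone oxidoreductase, had 14.5, 11.3 and 13.7 FPKM under OTX, against 8.84, 7.11 and 7.75 FPKM in DMSO without folic acid, and 12.8, 10.8 and 11.9 FPKM under OTX, against 8.70, 8.42 and 7.38 FPKM in DMSO with it in IMS-M2, with the groups apart. It rose by 0.67 ± 0.11, adjusted p = 0.00016, and by 0.48 ± 0.11, adjusted p = 0.00154, without and with folic acid. In U937 it ranged from 0.0304 to 0.143 FPKM.

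CMBL (chr5:10277706-10308168), a hydrolase, had 7.23, 7.54 and 8.06 FPKM under OTX, against 10.7, 10.1 and 11.5 FPKM in DMSO without folic acid, and 7.85, 7.72 and 7.87 FPKM under OTX, against 11.4, 12.2 and 12.7 FPKM in DMSO with it in IMS-M2. All OTX libraries were below all DMSO libraries, with log2 changes of -0.45 ± 0.071, adjusted p = 0.000153, and -0.57 ± 0.071, adjusted p = 1.82e-05, and 10 of the 12 U937 libraries were listed at 0. GDF15, a secreted stress cytokine whose locus holds MIR3189, rose in IMS-M2 without (0.63 ± 0.13, adjusted p = 0.00128) and with folic acid (0.40 ± 0.13, adjusted p = 0.0181), where the groups overlapped. RPS27L, a ribosomal protein paralog whose reads may be split with RPS27, rose in U937 -FA (0.69 ± 0.24, adjusted p = 0.0256), U937 +FA (0.98 ± 0.24, adjusted p = 0.00441) and IMS-M2 +FA (0.36 ± 0.12, adjusted p = 0.0198) and had 0.25 ± 0.12, adjusted p = 0.0961, in IMS-M2 -FA. In U937 -FA DMSO, 1 library stood at 121 FPKM and the others at 58.5 and 62.4 FPKM. ANKRA2, an ankyrin repeat protein, rose in IMS-M2 -FA (0.47 ± 0.15, adjusted p = 0.0175) and had -0.19 ± 0.16, 0.01 ± 0.16 and 0.21 ± 0.15 in U937 -FA, U937 +FA and IMS-M2 +FA. The GDF15 call in IMS-M2 +FA was lost without DMSO replicate 2 or 3 or OTX replicate 1 or 2 (0.000455 to 0.0844), and the ANKRA2 call without OTX replicate 1 (0.000402 to 0.0544). The RPS27L call was lost in U937 -FA without DMSO column 0 or 1, OTX column 1 or 2, or with the 6 libraries of the table alone (0.000166 to 0.108), and in IMS-M2 +FA without DMSO replicate 1 or OTX replicate 2 (0.00224 to 0.0739).

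FDXR (chr17:72858618-72869156), a mitochondrial ferredoxin reductase, changed in opposite directions in the IMS-M2 tables. It had 21.9, 19.5 and 22.2 FPKM under OTX, against 31.0, 23.6 and 26.1 FPKM in DMSO without folic acid, and 34.9, 29.9 and 33.0 FPKM under OTX, against 30.9, 22.9 and 23.4 FPKM in DMSO with it. The groups were apart without folic acid, and with it 1 DMSO library lay between the OTX libraries. The log2 changes were -0.32 ± 0.12, adjusted p = 0.0407, and 0.34 ± 0.12, adjusted p = 0.0297. The call without folic acid was lost without DMSO replicate 1 or 3, without OTX replicate 1, 2 or 3, with no filter and under both rescalings (0.00754 to 0.178). The call with folic acid was lost without DMSO replicate 2 or 3, without OTX replicate 1 or 3, with no filter and with the 6 libraries of the table alone (0.00235 to 0.115). In U937 the FDXR changes were 0.20 ± 0.15, adjusted p = 0.284, and 0.14 ± 0.15, adjusted p = 0.437, without and with folic acid.

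The series asks whether folic acid deprivation alters the effect of OTX, and 4 p53 targets passed for such a difference in IMS-M2. The difference, the OTX change without folic acid minus that with it, passed for MDM2, PLK2, PHLDA3 and FDXR of 31 genes tested, all lower without folic acid. Of all genes tested in IMS-M2, 3.33% had a higher and 3.61% a lower OTX change without folic acid, or 6.94% together. PLK2 (chr5:57749809-57755966), a polo-like kinase of the damage response, had 28.0, 28.2 and 29.5 FPKM under OTX, against 27.3, 25.1 and 27.3 FPKM in DMSO without folic acid, and 36.4, 38.4 and 36.5 FPKM under OTX, against 24.3, 26.7 and 25.8 FPKM in DMSO with it. The DMSO libraries of both conditions were close, and the OTX libraries with folic acid stood above the 9 others. PLK2 changed by 0.10 ± 0.067, adjusted p = 0.215, without and 0.52 ± 0.067, adjusted p = 2.36e-05, with folic acid. The differences were -0.42 ± 0.094, adjusted p = 0.0297, for PLK2, -0.61 ± 0.14, adjusted p = 0.0345, for PHLDA3, -0.66 ± 0.18, adjusted p = 0.0432, for FDXR, and -0.50 ± 0.13, adjusted p = 0.0433, for MDM2 (± SE, limma).

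The sizes of these 4 differences moved little over the alternatives, while the adjusted p crossed the threshold in many. The log2 difference ran from -0.58 to -0.41 for MDM2, from -0.46 to -0.38 for PLK2, from -0.69 to -0.52 for PHLDA3 and from -0.80 to -0.56 for FDXR. The MDM2 call was kept without IMS-M2 +FA DMSO replicate 1 or IMS-M2 -FA OTX replicate 2 and lost without any of the other 10 libraries, with no filter and with quantile normalization (adjusted p 0.0195 to 0.122 over the alternatives). The FDXR call was lost without 11 of the 12 libraries, kept without IMS-M2 +FA DMSO replicate 1, and lost with no filter and with quantile normalization (0.00314 to 0.108). The PHLDA3 call was kept without IMS-M2 +FA DMSO replicate 1, -FA DMSO replicate 3 or -FA OTX replicate 2, lost without any of the other 9 libraries, and lost with no filter (0.00525 to 0.0973). The PLK2 call was kept without IMS-M2 +FA DMSO replicate 1 or 2 or -FA OTX replicate 2 and lost without any of the other 9 (0.00802 to 0.0977). Without IMS-M2 +FA DMSO replicate 1, 3 p53 targets had a higher and 7 a lower OTX change without folic acid. The share of all genes in that fit is not given here, so these counts are not read as particular to p53 targets.

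In U937 none of the 24 tested genes passed by limma for the same difference, against 0.741% of all genes higher and 1.27% lower without folic acid, or 2.01% together. AEN (-0.52 ± 0.12, adjusted p = 0.0513) and DDB2 (-0.62 ± 0.16, adjusted p = 0.0539) came closest. Without U937 -FA DMSO column 1, 2 genes were higher and 3 lower, and without U937 +FA DMSO replicate 1, 1 was higher and 2 lower. The shares of all genes in these 2 fits are not given here, so the counts are not read as particular to p53 targets.

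**Figure D3:**
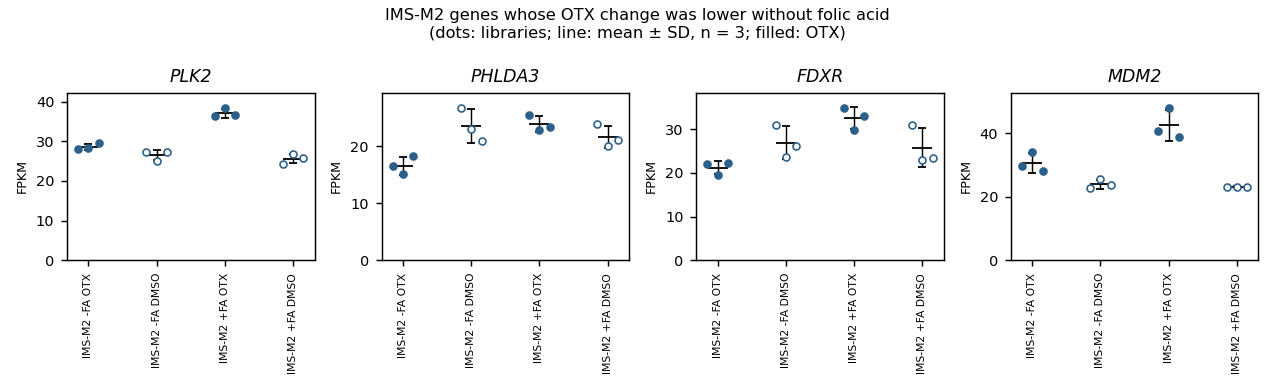
FPKM in the 4 IMS-M2 groups of the 4 genes whose OTX change was lower without folic acid. Dots are libraries, filled under OTX and open in DMSO, and lines are means ± SD (n = 3). For PLK2 and MDM2 the +FA OTX libraries stand highest, and for PHLDA3 the -FA OTX libraries stand lowest.

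Levels without and with folic acid come from separate tables, whose common scaling is not stated, so they are described with no test. In IMS-M2 DMSO libraries, 4 of 31 targets had all -FA libraries above all +FA libraries (12.9%, against 18% of all genes) and 7 had them below (22.6%, against 16.4%). BTG2 (a log2 difference of 1.09), RRM2B (0.48), TRIAP1 (0.34) and DRAM1 (0.25) were the 4 above, and FAS (-0.47) and EDA2R (-0.44) lay farthest below. In IMS-M2 OTX libraries, 3 targets were above (9.68%, against 13.8% of all genes) and 10 below (32.3%, against 11%), with BTG2 (0.78), GDF15 (0.41) and TP53INP1 (0.30) above and FDXR (-0.60), PHLDA3 (-0.50), MDM2 (-0.45) and PLK2 (-0.37) farthest below. In U937 DMSO libraries, 2 of 24 were above (8.33%, against 19.4%) and 3 below (12.5%, against 10.9%), with DRAM1 (0.96) and TNFRSF10B (0.44) above and TRIAP1 (-0.38) farthest below. In U937 OTX libraries, 5 were above (20.8%, against 19.7%) and 5 below (20.8%, against 21%), among them DRAM1 (0.88), RRM2B (0.51) and BTG2 (0.45) above and DDB2 (-0.69) and AEN (-0.43) below.

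Between the lines, many p53 targets had a lower level in U937, part of them genes that passed the filter in IMS-M2 alone. The comparison is across tables and is given with no test. Of 31 targets that averaged at least 1 FPKM in a group, 15 (48.4%) had all 12 U937 libraries below all 12 IMS-M2 libraries, 0 had them above and 16 overlapped. Of 12197 such genes in all, 15.9% were below and 17.4% above. The median log2 level of U937 minus IMS-M2 was -0.93 for the 31 targets and -0.02 for all genes. No median over the 24 targets tested in both lines was taken. PLK2, EDA2R, PHLDA3, TP53INP1, GDF15, TP53I3 and CMBL averaged below 1 FPKM in every U937 group. They entered these counts and the median through IMS-M2 alone, so their place below follows in part from the filter. Of the 24 targets tested in both lines, MDM2, PPM1D, GADD45A, ZMAT3, POLH, ASCC3, SESN1 and FDXR were below and 0 above. The share of all genes tested in both lines was not taken, so this count has no background beside it. ZMAT3 reached 1 FPKM in U937 only under OTX. PLK2 ranged from 0.0864 to 0.492 FPKM, median 0.222, in U937 and from 24.3 to 38.4 FPKM, median 27.7, in IMS-M2. PHLDA3 ranged from 0.110 to 0.495 FPKM, median 0.311, in U937 and from 15.1 to 26.8 FPKM, median 22.0, in IMS-M2. MDM2 ranged from 5.30 to 6.67 FPKM, median 5.81, in U937 and from 22.6 to 48.0 FPKM, median 26.8, in IMS-M2. The others below were PPM1D, GADD45A, ZMAT3, POLH, ASCC3, EDA2R, TP53INP1, GDF15, SESN1, TP53I3, FDXR and CMBL. MDM4 overlapped almost fully, with 3.21 to 4.64 FPKM, median 4.01, in U937 and 3.57 to 4.86 FPKM, median 4.03, in IMS-M2. BTG1 had its highest values in U937 OTX libraries.

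**Figure D4:**
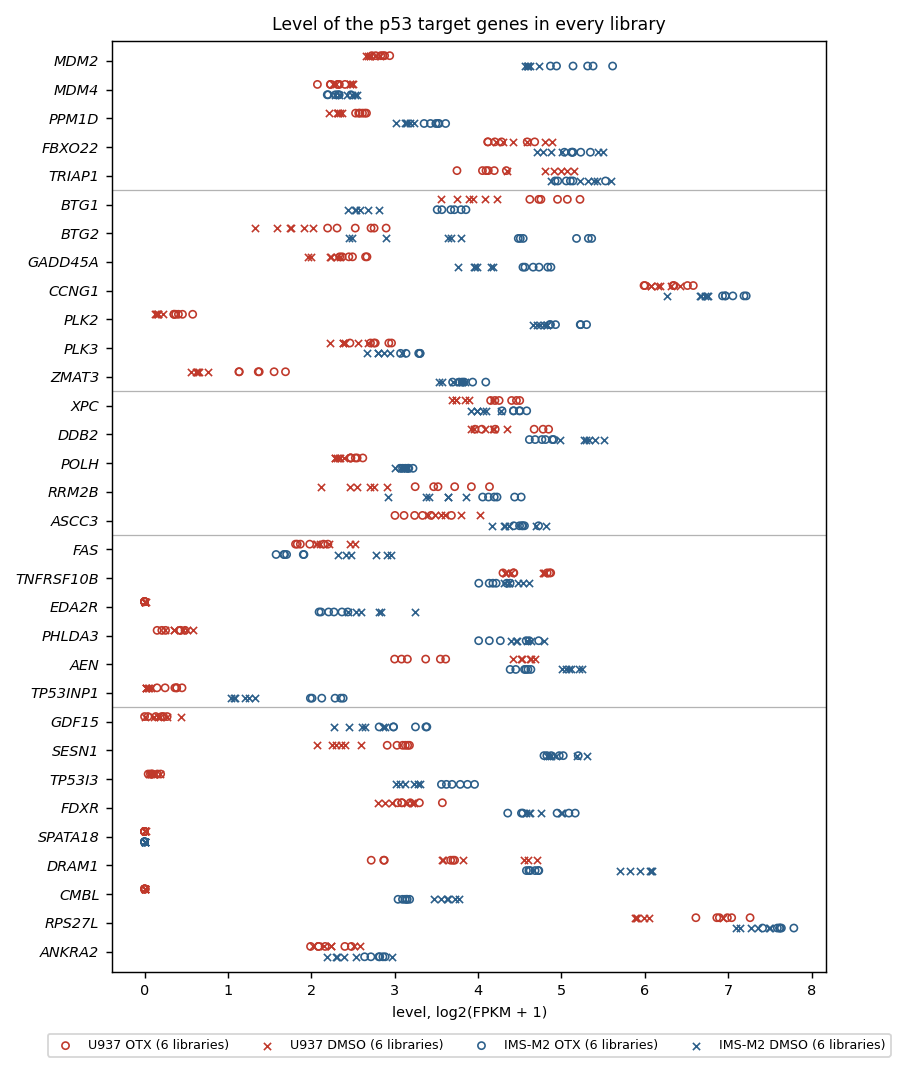
Level of the 32 genes in every library as log2(FPKM + 1), with OTX libraries as circles, DMSO libraries as crosses, U937 in red above IMS-M2 in blue, and grey lines between the 5 roles. PLK2, EDA2R, PHLDA3, TP53I3 and CMBL lie near 0 in U937 and clearly above it in IMS-M2, and no gene has all U937 libraries above all IMS-M2 libraries.

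The OTX change itself also differed between the lines for part of the targets, among them AEN, SESN1, DDB2 and BTG2. With U937 minus IMS-M2, 9 of 31 genes had a higher and 8 a lower change without folic acid, against 21.5% and 21.5% of 12197 genes, or 43.0% together. With folic acid, 10 were higher and 9 lower, against 27.7% and 22.9%, or 50.6% together. These counts include the 7 genes below the filter in U937, which enter this contrast mainly with their IMS-M2 change turned round, and ZMAT3. Of the 24 genes tested in both lines, 6 were higher and 5 lower without folic acid, against 18.4% and 20.8% of the 10220 genes tested in both, and 8 were higher and 5 lower with it, against 25.1% and 22.7%. Without ZMAT3, 5 of 23 were higher without and 7 of 23 with folic acid. Among the 7 genes were CMBL (0.45 and 0.57 without and with folic acid), TP53INP1 (-0.79 and -0.68) and TP53I3 (-0.68 and -0.48). With a pseudocount of 0.1 FPKM in place of 1, TP53INP1 had 0.18 without folic acid, and its call was lost in both conditions (adjusted p 6.18e-07 to 0.611 and 6.57e-07 to 0.649 over the alternatives), as was that of TP53I3 with folic acid (0.000539 to 0.067). PLK2 turned to 0.47 with folic acid under that pseudocount (0.00394 to 0.0537).

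Among genes expressed in both lines, AEN fell more in U937 (-0.92 ± 0.12, adjusted p = 3.22e-06, without and -0.44 ± 0.12, adjusted p = 0.00431, with folic acid). SESN1 differed by 0.85 ± 0.15, adjusted p = 0.000152, and 0.76 ± 0.15, adjusted p = 0.000359. DDB2 differed by 1.20 ± 0.15, adjusted p = 2.71e-06, with folic acid, where it rose in U937 and fell in IMS-M2, and by 0.45 ± 0.15, adjusted p = 0.024, without it. MDM2 (-0.80 ± 0.11, adjusted p = 7.09e-06), BTG2 (-1.16 ± 0.18, adjusted p = 3.58e-05) and TRIAP1 (-1.18 ± 0.21, adjusted p = 0.00012) had lower changes in U937 with folic acid, and BTG2 also without it (-0.64 ± 0.18, adjusted p = 0.00892). The DDB2 difference without folic acid was lost without IMS-M2 -FA DMSO replicate 1 or 3, IMS-M2 -FA OTX replicate 2, U937 -FA DMSO column 1 or U937 -FA OTX column 0 (0.00798 to 0.0655), and that of BTG2 without folic acid was lost with a pseudocount of 0.1 FPKM (0.00224 to 0.105). BTG1, PPM1D and PLK3 did not pass for a difference in either condition. For BTG1 the difference was -0.25 ± 0.18, adjusted p = 0.28, and 0.04 ± 0.18, adjusted p = 0.877 without and with folic acid, and a p above the threshold does not show that the changes were alike.

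**Figure D5:**
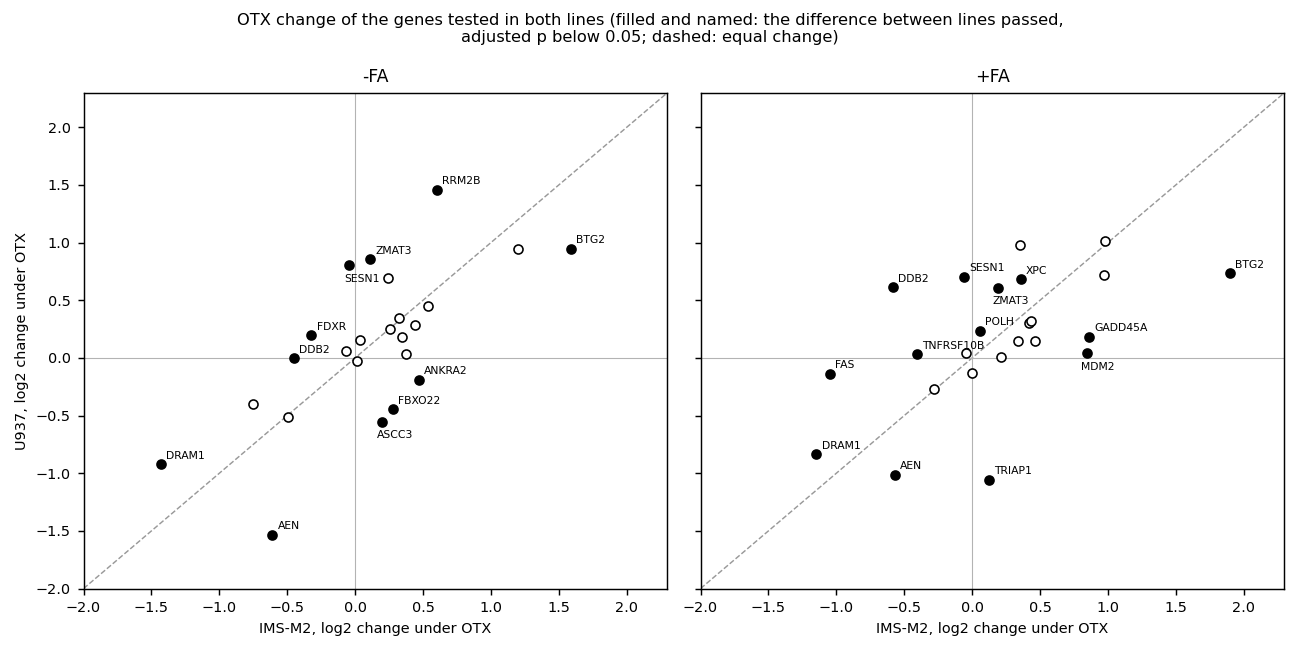
OTX change in U937 (vertical axis, log2) against that in IMS-M2 (horizontal axis, log2) for the 24 genes tested in both lines, without and with folic acid. Filled, named points passed for the difference between lines at an adjusted p below 0.05, and the dashed line marks equal change. AEN and DRAM1 lie in the lower left of both panels, and DDB2 lies at the upper left with folic acid.

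Other known p53 targets, a list of 95 symbols of which 91 were in the tables, gave the surroundings of these genes. Of 67 tested in U937, 31 rose and 13 fell without folic acid and 30 rose and 12 fell with it, with median log2 changes of 0.19 and 0.21. Of all genes in U937, 28.0% rose and 31.7% fell without folic acid and 29.1% rose and 27.0% fell with it. Of 68 tested in IMS-M2, 24 rose and 21 fell without folic acid and 26 rose and 26 fell with it, with medians of 0.03 and 0.01. The shares of all genes in IMS-M2 were 27.5% and 30.0% without folic acid and 29.8% and 33.4% with it. CDKN1A, the inhibitor p21 that executes p53-dependent arrest, rose most in U937. It had 56.3, 68.7 and 54.4 FPKM under OTX, against 4.28, 4.27 and 3.36 FPKM in DMSO without folic acid, and 45.7, 36.2 and 35.7 FPKM under OTX, against 2.73, 3.14 and 3.07 FPKM in DMSO with it in U937. In IMS-M2 it had 101, 101 and 118 FPKM under OTX, against 37.9, 34.2 and 35.5 FPKM in DMSO without folic acid, and 139.8, 126 and 138 FPKM under OTX, against 29.8, 28.2 and 27.6 FPKM in DMSO with it. The OTX libraries stood far above the DMSO libraries in each table, and DMSO levels were lower in U937. The log2 changes were 3.61 ± 0.12, adjusted p = 5.31e-09, in U937 -FA, 3.33 ± 0.12, adjusted p = 1.06e-08, in U937 +FA, 1.55 ± 0.081, adjusted p = 8.42e-09, in IMS-M2 -FA, and 2.2 ± 0.081, adjusted p = 2.92e-10, in IMS-M2 +FA, and the change differed between the lines by 2.06 ± 0.15, adjusted p = 6.48e-10, without and 1.13 ± 0.15, adjusted p = 2.85e-06, with folic acid.

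The death effectors of the list moved less. BAX, which permeabilises mitochondria, did not pass in any table (log2 0.39, 0.05, -0.21 and 0.23 in U937 -FA, U937 +FA, IMS-M2 -FA and IMS-M2 +FA). BBC3, the BH3-only protein PUMA, rose in IMS-M2 +FA (1.04 ± 0.18, adjusted p = 0.000313) and had 0.19, -0.40 and 0.42 in U937 -FA, U937 +FA and IMS-M2 -FA. PMAIP1, the BH3-only protein NOXA, rose in U937 -FA (0.60), IMS-M2 -FA (0.69) and IMS-M2 +FA (1.03) and had -0.31 ± 0.17, adjusted p = 0.144, in U937 +FA. Among those with the smallest p, CD82, a tetraspanin, rose in U937 -FA (2.40), U937 +FA (2.86) and IMS-M2 -FA (1.22). BCL2L1, the survival protein BCL-XL, fell in U937 +FA (-0.70) and rose in IMS-M2 +FA (1.06), and INPP5D, a lipid phosphatase, rose in U937 +FA (0.93). These genes were picked by p within a condition, so a condition left out is not one shown to be unchanged. FOSL1, a subunit of AP-1, fell by 1.11, 0.86, 1.89 and 2.23 on the log2 scale in U937 -FA, U937 +FA, IMS-M2 -FA and IMS-M2 +FA, and TRIM22, an antiviral ubiquitin ligase, fell by 0.86, 1.01, 1.41 and 1.41.

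Genes that act upstream of p53 showed no common direction. Of 27 tested in each line, 5 rose and 10 fell in U937 -FA, 8 rose and 4 fell in U937 +FA, 9 rose and 5 fell in IMS-M2 -FA and 10 rose and 7 fell in IMS-M2 +FA, with medians of -0.14, -0.02, -0.07 and -0.08. Of all genes, 28.0% rose and 31.7% fell in U937 -FA, 29.1% and 27.0% in U937 +FA, 27.5% and 30.0% in IMS-M2 -FA and 29.8% and 33.4% in IMS-M2 +FA. SIRT1, a deacetylase of p53, rose in U937 -FA (0.90 ± 0.11), IMS-M2 -FA (1.07 ± 0.10) and IMS-M2 +FA (1.41 ± 0.10). PPP1R13B, the p53 cofactor ASPP1, rose by 1.38 ± 0.079 in U937 -FA, 1.48 ± 0.079 in U937 +FA and 0.56 ± 0.075 in IMS-M2 +FA. CDKN2A, which has the MDM2 inhibitor ARF among its products, fell in IMS-M2 without (-1.69 ± 0.12) and with folic acid (-1.21 ± 0.12). It ranged from 1.52 to 8.93 FPKM in IMS-M2 and from 63.7 to 123 FPKM in U937. A value per gene does not show ARF alone. RPL5, a ribosomal protein that binds MDM2, fell in U937 without (-0.85 ± 0.093) and with folic acid (-0.66 ± 0.093). These 4 genes were also picked by p within a condition, and a condition left out is not one shown to be unchanged.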

How the data were processed

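Polyadenylated RNA of 24 libraries was measured, and the deposited values are FPKM in 4 tables, 1 per line and folic acid condition. The headers do not name the unit, which was taken from the fractional values and the layout. The tools in the submitters' processing notes are Cuffdiff 2.2.1, TopHat2 2.1.1 and bcl2fastq 2.17.1.14, with the build hg19. No source says if 1 normalization covered all 4 tables, so levels across tables have no test.

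limma 3.58.1 in R 4.3.3 was run on log2(FPKM + 1), with a group-means model, eBayes and an intensity trend, over the 12 libraries of a line or all 24 for line differences. The pseudocount understates changes of low genes. A gene was tested where any group of the fit averaged 1 FPKM or more, and Benjamini-Hochberg adjusted p below 0.05 over all genes tested was the threshold. The procedure was run on simulated data with independent noise, in which far fewer genes changed than here. That run therefore does not give the error rate of these calls. The columns of U937 -FA are numbered 0 to 2 and could be tied to groups only, hence column 0, 1 and 2. The members and lists were chosen with earlier results of these data known. Every one of the 32 genes could be named, and the p53 gene itself is not analysed here. Values of every library are given for MDM2, MDM4, genes called alike in all 4 OTX contrasts, and up to 5 per contrast of differences by smallest adjusted p. ZMAT3 and CDKN1A values, and the counts without ZMAT3 or over genes tested in both lines, were added after they were seen. From other p53 targets CDKN1A, BAX, BBC3 and PMAIP1 were always eligible, with up to 4 others per direction and contrast by smallest p, and up to 2 from the upstream list.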

Additional observations from a re-analysis of the deposited data

Results flagged for a closer look

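Each of these genes passed limma's test of a difference in OTX change between folic acid conditions or between lines. PLK2, EDA2R, PHLDA3, TP53INP1, GDF15, TP53I3 and CMBL were below the filter in U937. Their line differences are set mainly by the IMS-M2 change and do not compare 2 measured changes. All groups hold 3 libraries, too few to judge a single library as deviant. Calls lost when a library was left out are given above or below. Of the log2 differences of the OTX change without folic acid minus that with it in IMS-M2, MDM2 -0.50, PLK2 -0.42, PHLDA3 -0.61 and FDXR -0.66 passed.

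For U937 minus IMS-M2 without folic acid, the log2 differences that passed above 0 were ZMAT3 0.75, DDB2 0.45, RRM2B 0.86, EDA2R 0.37, PHLDA3 0.40, SESN1 0.85, FDXR 0.52, DRAM1 0.51 and CMBL 0.45. Those below 0 were FBXO22 -0.73, BTG2 -0.64, ASCC3 -0.76, AEN -0.92, TP53INP1 -0.79, GDF15 -0.66, TP53I3 -0.68 and ANKRA2 -0.66. Over the alternatives tried, some of these calls, by limma, were lost. FBXO22 was lost without IMS-M2 -FA DMSO replicate 1, IMS-M2 -FA OTX replicate 2, U937 -FA DMSO column 2 or U937 -FA OTX column 1 (adjusted p 0.00557 to 0.0833). BTG2 was lost with a pseudocount of 0.1 FPKM (adjusted p 0.00224 to 0.105). DDB2 was lost without IMS-M2 -FA DMSO replicate 1 or 3, IMS-M2 -FA OTX replicate 2, U937 -FA DMSO column 1 or U937 -FA OTX column 0 (adjusted p 0.00798 to 0.0655). EDA2R was lost without IMS-M2 -FA DMSO replicate 2 and with quantile normalization (adjusted p 0.00597 to 0.0715). PHLDA3 was lost without IMS-M2 -FA DMSO replicate 1, IMS-M2 -FA OTX replicate 1 or 2, U937 -FA DMSO column 0 or 1 or U937 -FA OTX column 0 or 1 and with a pseudocount of 0.1 FPKM, no filter, only the 12 libraries of the 4 groups (adjusted p 0.0165 to 0.595). TP53INP1 was lost and turned to 0.18 with a pseudocount of 0.1 FPKM (adjusted p 6.18e-07 to 0.611). GDF15 was lost with a pseudocount of 0.1 FPKM (adjusted p 0.00148 to 0.16). FDXR was lost without IMS-M2 -FA DMSO replicate 1 or 3, IMS-M2 -FA OTX replicate 1, 2 or 3, U937 -FA DMSO column 0 or 2 or U937 -FA OTX column 0 or 1 and with a pseudocount of 0.1 FPKM, no filter, quantile normalization, replicate block (adjusted p 0.0208 to 0.133). ANKRA2 was lost without IMS-M2 -FA DMSO replicate 1 or 3, IMS-M2 -FA OTX replicate 1, U937 -FA DMSO column 2 or U937 -FA OTX column 0 or 1 (adjusted p 0.0016 to 0.0779).

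For U937 minus IMS-M2 with folic acid, the log2 differences that passed above 0 were ZMAT3 0.41, XPC 0.33, DDB2 1.20, POLH 0.18, FAS 0.91, TNFRSF10B 0.44, EDA2R 0.63, SESN1 0.76, DRAM1 0.31 and CMBL 0.57. Those below 0 were MDM2 -0.80, TRIAP1 -1.18, BTG2 -1.16, GADD45A -0.67, PLK2 -0.27, AEN -0.44, TP53INP1 -0.68, GDF15 -0.46 and TP53I3 -0.48. CMBL, EDA2R, TP53INP1, GDF15, TP53I3, PHLDA3 and PLK2 were below the filter in U937, so their values are set mainly by IMS-M2, and ZMAT3 passed it there through its OTX groups. Some of these calls, by limma, were also lost. PLK2 was lost and turned to 0.47 with a pseudocount of 0.1 FPKM (adjusted p 0.00394 to 0.0537). ZMAT3 was lost without IMS-M2 +FA DMSO replicate 2 or 3, IMS-M2 +FA OTX replicate 1 or 3, U937 +FA DMSO replicate 3 or U937 +FA OTX replicate 3 (adjusted p 0.000427 to 0.0818). XPC was lost without IMS-M2 +FA DMSO replicate 2 or 3, IMS-M2 +FA OTX replicate 2 or 3, U937 +FA DMSO replicate 2 or 3 or U937 +FA OTX replicate 1 or 3 and with no filter, quantile normalization, replicate block (adjusted p 0.0235 to 0.124). POLH was lost without IMS-M2 +FA DMSO replicate 2 or 3, IMS-M2 +FA OTX replicate 1 or 2, U937 +FA DMSO replicate 1, 2 or 3 or U937 +FA OTX replicate 2 or 3 and with libraries rescaled to the median ratio, quantile normalization, only the 12 libraries of the 4 groups, replicate block (adjusted p 0.0293 to 0.0969). TP53INP1 was lost with a pseudocount of 0.1 FPKM (adjusted p 6.57e-07 to 0.649). GDF15 was lost without IMS-M2 +FA DMSO replicate 2 or 3, IMS-M2 +FA OTX replicate 1 or 2, U937 +FA DMSO replicate 2 or 3 or U937 +FA OTX replicate 2 and with a pseudocount of 0.1 FPKM, only the 12 libraries of the 4 groups (adjusted p 0.000792 to 0.134). TP53I3 was lost with a pseudocount of 0.1 FPKM (adjusted p 0.000539 to 0.067). DRAM1 was lost without IMS-M2 +FA DMSO replicate 2 or U937 +FA DMSO replicate 2 or 3 and with a pseudocount of 0.1 FPKM, only the 12 libraries of the 4 groups (adjusted p 0.00299 to 0.0692).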

How the results depend on the processing

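Over the alternatives tried (pseudocount, filter, 2 rescalings, no intensity trend, fewer libraries in the fit, the replicate block and each library left out), 81 of 117 calls kept their direction and passed in every one, 36 were lost in some, and 23 were gained in some. The cause of these shifts was not tested. For the change of the OTX effect with folic acid, lower calls in IMS-M2 numbered 1 with no filter and 2 with quantile normalization, against 4. With libraries left out in turn, they ran from 0 to 7 and the higher calls from 0 to 3. In U937 the same ranges were 0 to 3 and 0 to 2. For the line difference without folic acid, a pseudocount of 0.1 FPKM gave 5 lower calls in place of 8, and with folic acid 5 in place of 9. There, the higher calls ran from 6 to 11 without single libraries, with 6 without IMS-M2 +FA DMSO replicate 2 or without U937 +FA DMSO replicate 3. With that pseudocount, TP53INP1 reversed to 0.18 without folic acid (adjusted p = 0.611, limma), and PLK2 reversed to 0.47 with it (0.0537). OTX counts stayed within 1.5 times of those given. The counts of this section stand without the share of all genes called in the same setting. A shift of the p53 targets therefore cannot be told apart here from a shift of all genes.

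Equal replicate numbers went with weak positive correlations between OTX and DMSO libraries in IMS-M2 and not in U937 +FA. The main fits used no pairing. Deviations of libraries with equal numbers correlated at 0.0534, 0.275 and 0.0746 in IMS-M2 +FA and at 0.0732, 0.211 and 0.185 in IMS-M2 -FA. In IMS-M2 -FA each library correlated best with its own number. Unlike numbers in IMS-M2 gave -0.178 to 0.0670. In U937 +FA equal numbers gave -0.332, 0.126 and -0.235, and unlike numbers gave -0.316 to 0.492. The highest was OTX replicate 3 with DMSO replicate 1. With the replicate block, 1 gene, MDM4, had a higher OTX change without folic acid in IMS-M2, against 0, and TRIAP1 joined the lower ones, 5 against 4. In U937 -FA no block could be fitted. Depth is unknown, which leaves low values without a counting error.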
